A study of Arabidopsis thaliana with 28 samples.

Results

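In seedlings of Arabidopsis thaliana, 22 genes had fewer reads in every library that carried the h2a.z-5 mutations than in every library that did not. They were picked from the 36632 genes of the genotype count table by their own values. Each had all 9 h2a.z-5 libraries below all 9 others in CPM (the count divided by the library's total over all genes, brought to a common total), a mean of at least 1 CPM in the 9 others, and a mean there at least 1.3 times that of the 9. HTA8, HTA9 and HTA11, the genes mutated in h2a.z-5, also met these conditions and were left out. Of the 17379 genes with a mean of at least 1 CPM in the 9 others, 0.144% met the rule, those 3 included. The drop in the h2a.z-5 libraries is how the genes were chosen, so it is described and not tested.

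H2A.Z is a variant of histone H2A that the SWR1 remodelling complex places into nucleosomes, in plants mostly near the start of genes and over the bodies of responsive genes. It is known in Arabidopsis for its part in flowering time, temperature response and the control of inducible genes. HDA6 and HDA9 are histone deacetylases, and trichostatin A (TSA) inhibits enzymes of this class; acetylated histone tails are among the features that subunits of SWR1-type complexes bind.

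The series measured total RNA of whole seedlings 12 days after germination, grown at 21 °C in long days after 4 days of stratification at 4 °C. All plants were in the Columbia (Col-0) background. The line h2a.z-5 carries an HTA8 allele with an extra adenosine after base 241 and a stop after base 318, together with the T-DNA insertions SALK_054814 and SALK_017235. The line hda6-1 carries SALK_201895C and hda9-1 carries SALK_007123. Soil-grown plants gave 3 libraries for each of 6 genotypes: Col-0, the 3 mutant lines, and h2a.z-5 combined with hda6-1 (hda6-1 h2a.z-5) or with hda9-1 (hda9-1 h2a.z-5). Mock and TSA were Col-0 in MS medium with 1% sucrose, with 5 libraries each; the labels give no TSA dose or duration. Each mutant line is a single set of alleles, so an effect of a line cannot be told apart from anything else its plants share. In whole seedlings, fewer cells of a type and less RNA per cell cannot be told apart either.

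Library totals over all genes ranged from 30257874 to 40395659 reads. HTA11, HTA9 and HTA8 were lower in all 9 h2a.z-5 libraries, and HDA9 was lower in all 6 libraries labelled with hda9-1. HDA6 was not lower than in Col-0 in the libraries labelled with hda6-1, and counts do not show whether its transcript was intact. The libraries labelled hda6-1 held 88.3 to 153 CPM of it, those labelled hda6-1 h2a.z-5 held 15.1 to 18.6 CPM, and Col-0 held 12.4 to 18.8 CPM. Directions drawn from libraries with this label rest on the labels. Photosynthesis genes were abundant throughout, and the seed storage gene CRU3 reached no more than 0.0255 CPM in the genotype libraries. The pollen gene VGD1 was likewise at or near 0. The summed level of 9 flower and pollen markers was 0.765 to 4.01 CPM in the libraries without h2a.z-5 and 2.53 to 10.04 CPM in those with it; its part in the differences below was not tested.

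The stretches around the annotated starts of 4 of the genes are shown because the results below turn on them: the 3 with the largest drop and the gene that rose in TSA. Each runs from 250 bases before to 50 bases after the start, 5′ to 3′ on the gene's own strand, read from TAIR10.1. All 4 genes lie on the minus strand, at chr5:16908010-16908309 for AT5G42280, chr5:1495087-1495386 for AT5G05060, chr3:11510461-11510760 for AT3G05945 and chr4:13663322-13663621 for AT4G27270. Capitals mark matches to any of 8 short motifs searched on both strands.
AT5G42280: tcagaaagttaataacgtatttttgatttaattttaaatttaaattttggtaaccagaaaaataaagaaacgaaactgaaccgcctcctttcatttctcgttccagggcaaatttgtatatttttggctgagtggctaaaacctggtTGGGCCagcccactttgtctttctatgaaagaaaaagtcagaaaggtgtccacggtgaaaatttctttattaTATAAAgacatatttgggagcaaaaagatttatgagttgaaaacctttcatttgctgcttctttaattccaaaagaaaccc
AT5G05060: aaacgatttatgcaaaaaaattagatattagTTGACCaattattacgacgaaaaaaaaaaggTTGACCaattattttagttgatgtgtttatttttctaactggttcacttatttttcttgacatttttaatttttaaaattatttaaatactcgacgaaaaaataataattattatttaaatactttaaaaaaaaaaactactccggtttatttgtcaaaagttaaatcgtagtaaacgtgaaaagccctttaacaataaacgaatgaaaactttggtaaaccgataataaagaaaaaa
AT3G05945: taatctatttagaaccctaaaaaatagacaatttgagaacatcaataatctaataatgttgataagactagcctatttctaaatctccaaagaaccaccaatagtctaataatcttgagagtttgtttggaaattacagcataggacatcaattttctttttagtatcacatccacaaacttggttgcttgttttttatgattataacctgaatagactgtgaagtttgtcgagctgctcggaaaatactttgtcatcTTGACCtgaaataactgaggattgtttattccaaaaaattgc
AT4G27270: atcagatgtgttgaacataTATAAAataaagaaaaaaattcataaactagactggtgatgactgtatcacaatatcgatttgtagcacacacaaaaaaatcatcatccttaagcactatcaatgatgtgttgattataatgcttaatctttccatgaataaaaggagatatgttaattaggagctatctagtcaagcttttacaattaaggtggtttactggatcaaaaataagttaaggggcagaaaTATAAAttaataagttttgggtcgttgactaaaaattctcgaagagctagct

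AT5G42280 held the site II element TGGGCC and the TATA element TATAAA, AT5G05060 held the W-box core TTGACC at 2 places, AT3G05945 held it once, and AT4G27270 held TATAAA at 2 places. Over the starts of all 22 genes, TTGACC was present in 6 (27.3%), against 14.1% of the 17378 genes of at least 1 CPM with such a window. TATAAA was present in 11 of the 22 against 50.7%, TGGGCC in 4 against 19.8%, and GAGAGA in 4 against 28.7%. The G-box CACGTG, the telo box AAACCCTAA and the evening element AAATATCT were present in 1 gene each, against 9.05%, 3.38% and 5.85%, and the heat shock element core GAANNTTC in 0 against 11.2%. The letters are a description of these windows, and no motif was found in more than 11 of the 22. None of the 22 was in any of 21 lists of flowering, defence, hormone, stress, metabolic, chromatin and tissue genes. The lists are short, with 12 to 28 genes each, so this does not place the 22 outside these processes.

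The genes fell into 7 with a mean in the 9 others at least 2 times that in the 9 h2a.z-5 libraries and 15 below that. The median ratio was 1.62, from 1.32 to 20.8. For most genes the groups were close to touching: the lowest of the 9 others was less than 1.1 times the highest of the 9 h2a.z-5 libraries for 16 of the 22. The highest of the 9 h2a.z-5 libraries was one labelled hda6-1 h2a.z-5 for 11 genes, hda9-1 h2a.z-5 for 6 and h2a.z-5 for 5, and the lowest of the 9 others was an hda9-1 library for 11, one labelled hda6-1 for 6 and Col-0 for 5. Levels were moderate, with a median of 10.2 CPM in the 9 others, against 12.0 CPM over all genes of at least 1 CPM.

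**Figure D1:**
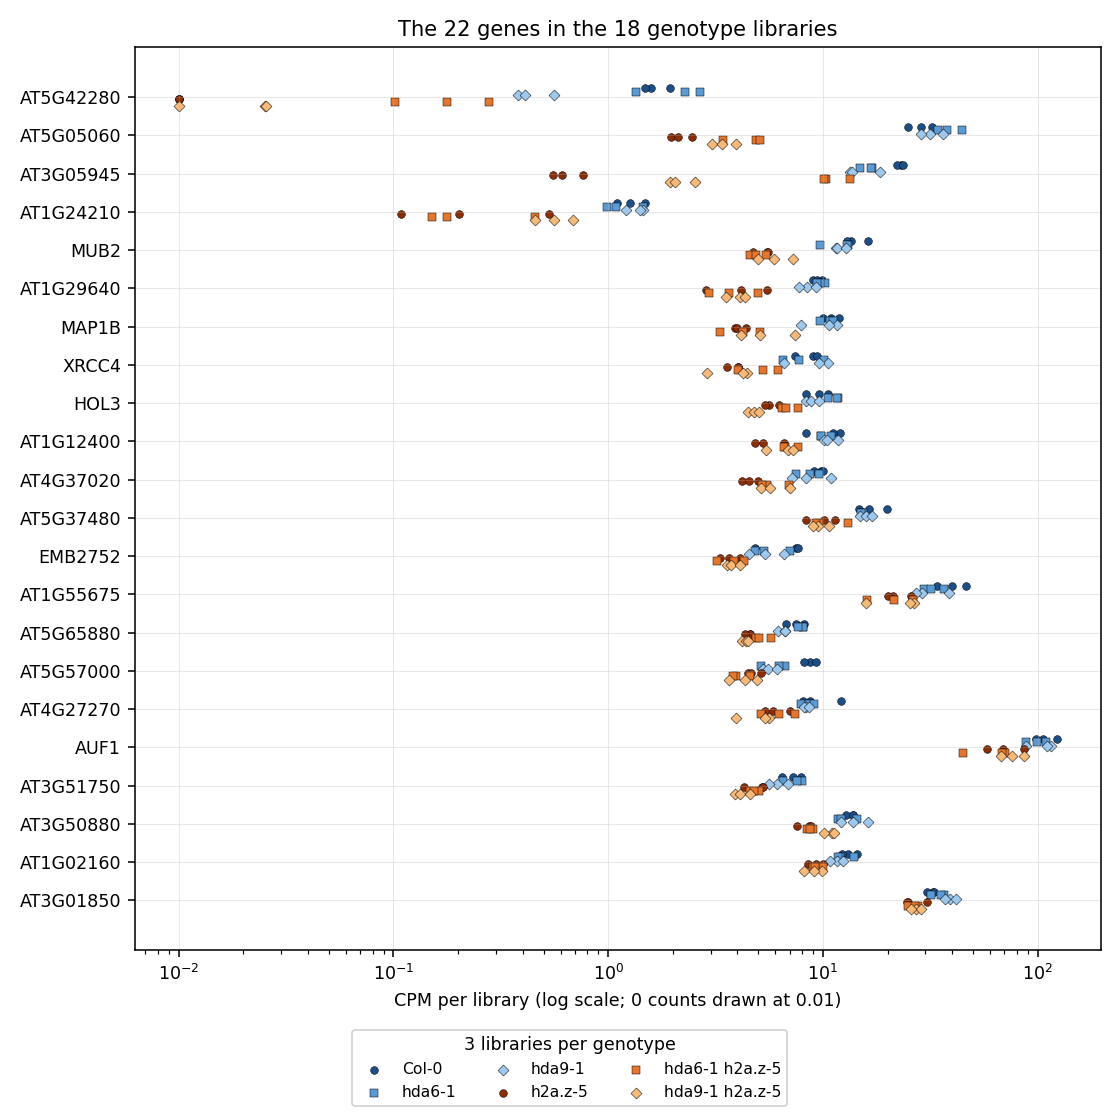
CPM of the 22 genes (rows, ordered by ratio) in each of the 18 genotype libraries, on a log axis; a count of 0 is drawn at 0.01. Blue points are the 9 libraries without h2a.z-5 and brown to orange points the 9 with it; the gap between the colours is wide for AT5G05060 and narrow for most other genes.

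AT5G42280 encodes a protein with cysteine- and histidine-rich C1 domains. It had the largest ratio, 20.8. Its level was 1.94, 1.59 and 1.49 CPM in Col-0, and all 3 h2a.z-5 libraries had 0 reads. It was therefore at least 64.6-fold lower in h2a.z-5, against a floor of 3 counts over the group. The libraries labelled hda6-1 held 2.28, 1.35 and 2.68 CPM, and with h2a.z-5 added 0.177, 0.279 and 0.101 CPM, a ratio of 11.3. In hda9-1 it was already low, at 0.557, 0.382 and 0.410 CPM, and hda9-1 h2a.z-5 held 2 reads in all against 53 in hda9-1, a ratio of 26.7 (exact 95% interval 7.02 to 226, counting error only). The gene overlaps VAR1, a chloroplast protease gene on the opposite strand, by 93 bases; VAR1 had a mean of 648 CPM in the 9 h2a.z-5 libraries, where AT5G42280 was near 0. A stretch of 133 bases matches AT1G48400 at 90.2% identity; that gene had 0.354 CPM in the 9 others and 0.921 CPM in the 9 h2a.z-5 libraries.

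AT5G05060 encodes a protein of the cystatin and monellin superfamily. It had the clearest gap of the 22 genes, with the lowest of the 9 others 4.87 times the highest of the 9 h2a.z-5 libraries. It stood at 32.0, 24.9 and 28.6 CPM in Col-0 and at 2.45, 1.95 and 2.12 CPM in h2a.z-5. It was 13.1-fold lower in h2a.z-5, 8.65-fold lower in hda6-1 h2a.z-5 than in hda6-1, and 9.32-fold lower in hda9-1 h2a.z-5 than in hda9-1. The test of the difference between backgrounds, below, did not call it. A stretch of 557 bases matches AT5G05040 at 98.9% identity; that gene had a mean of 0.0542 CPM in the 9 others and 0.0169 CPM in the 9 h2a.z-5 libraries, and reads that fit both genes could be split between them.

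AT3G05945 is a noncoding RNA gene of 421 bases (chr3:11510090-11510510, minus strand, TAIR10.1). Its drop differed between backgrounds, by the test given further on. It stood at 23.1, 22.1 and 23.5 CPM in Col-0 and at 0.556, 0.608 and 0.760 CPM in h2a.z-5, a drop of 35.7-fold. The drop was 6.98-fold in hda9-1 h2a.z-5 against hda9-1, whose libraries held 2.53, 1.93 and 2.05 CPM against 18.4, 13.4 and 13.6 CPM. It was only 1.44-fold in hda6-1 h2a.z-5 against hda6-1, with 13.3, 10.3 and 10.11 CPM against 16.9, 16.7 and 14.9 CPM. The hda6-1 h2a.z-5 libraries thus lay just under the other 9 (13.3 CPM at most, against 13.4 CPM at least), and the gene met the rule by that margin. That holds for CPM by column totals, and with TMM effective library sizes, the scaling of the tests, the gene did not meet the rule.

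AT1G24210, annotated with the paired amphipathic helix domain found in SIN3-type corepressors, was a gene of low level: Col-0 held 1.28 ± 0.196 CPM (SD, n = 3), and h2a.z-5 held 0.281 ± 0.223 CPM. MUB2, a membrane-anchored ubiquitin-fold protein, stood at 13.4, 13.0 and 16.1 CPM in Col-0 and at 5.46, 4.72 and 5.57 CPM in h2a.z-5. It was 2.70-fold lower in h2a.z-5, 2.40-fold in hda6-1 h2a.z-5 and 1.97-fold in hda9-1 h2a.z-5. AT1G29640, annotated as a senescence regulator with a DUF584 domain, was 2.12-fold to 2.53-fold lower across the 3 backgrounds. MAP1B encodes an organelle methionine aminopeptidase, which removes the first methionine of proteins. It stood at 9.97, 10.9 and 11.8 CPM in Col-0 and at 3.89, 4.36 and 3.99 CPM in h2a.z-5.

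The remaining 15 genes were closer to the limits of the rule. XRCC4, the partner of DNA ligase IV in end joining, had a ratio of 1.99, but it overlaps RLP37, a receptor-like protein gene on the opposite strand with a ratio of 1.48, over 2508 bases. Its neighbour RLP38 had a ratio of 1.89, and since the strand of the counts is not given, reads of XRCC4 and RLP37 cannot be told apart. XRCC4 stood at 6.49 to 10.6 CPM in the 9 others and at 2.88 to 6.14 CPM in the 9 h2a.z-5 libraries, and 268 of its bases match AT3G23109 at 97.4% identity. AT1G12400, the TTDA subunit of the repair and transcription factor TFIIH, had a ratio of 1.65, and the DNA glycosylase gene AT3G50880 a ratio of 1.45. A stretch of 435 bases of AT1G12400 matches AT1G12350 at 94.3% identity; AT1G12350 had 12.3 CPM in the 9 others and 11.8 CPM in the 9 h2a.z-5 libraries, a ratio of 1.04. The eIF4A-like gene AT4G37020 and the DEAD-box helicase gene AT5G57000 had ratios of 1.65 and 1.55. AT4G37020 stood at 9.64 ± 0.462 CPM (SD, n = 3) in Col-0 against 4.56 ± 0.388 CPM in h2a.z-5, and its lowest and highest libraries of the 2 sides, 7.14 and 6.99 CPM, almost met.

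Among the rest, HOL3, a methyltransferase gene, had a ratio of 1.70, AT5G37480 1.59, EMB2752, named for an embryo defect, 1.58, and the quinone reductase gene AT4G27270 1.53. The uncharacterized genes AT1G55675, AT5G65880 and AT3G51750 had ratios of 1.57, 1.56 and 1.49. AUF1, an F-box gene whose protein helps to mark others for degradation, was the most abundant of the 22, with 104 CPM in the 9 others and 69.7 CPM in the 9 h2a.z-5 libraries. The Cox19-type gene AT1G02160 and the TIM barrel gene AT3G01850 were just inside the rule, with ratios of 1.35 and 1.32. Just outside it, at 1.299, 1.28, 1.27, 1.26 and 1.22, were AT3G02190 (ribosomal protein L39), NF-YB1 (a subunit of the CCAAT-binding factor), RBX1 (a RING subunit of ubiquitin ligases), AT1G29040 (ribosomal protein L34) and AT3G06310. A further 9 genes had no overlap but a mean under 1 CPM, the highest being AT1G66650 at 0.992 CPM.

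Over the 22 genes the median fold lower was 1.82 in h2a.z-5 against Col-0, 1.52 in hda6-1 h2a.z-5 against hda6-1 and 1.65 in hda9-1 h2a.z-5 against hda9-1. The plot of folds by background shows how far the 3 values of a gene lie apart: they were 1.46, 1.53 and 1.48 for AT3G51750, and 35.7, 1.44 and 6.98 for AT3G05945. For AT5G42280 the span has no upper limit, since h2a.z-5 held 0 reads of it. The same rule turned round, higher in all 9 h2a.z-5 libraries, gave 60 genes by column totals. On that scale the median log2 ratio of the 9 others to the 9 h2a.z-5 libraries was -0.08 over all genes of at least 1 CPM. The count of 60 was not taken again with other scalings, so it is not set against the 22. Among 31189 transposable elements, 2 lay lower in all 9 libraries at any level; AT3TE39260 had 2.78 CPM in the 9 others and 1.27 CPM in the 9 (scaled by the gene totals).

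**Figure D2:**
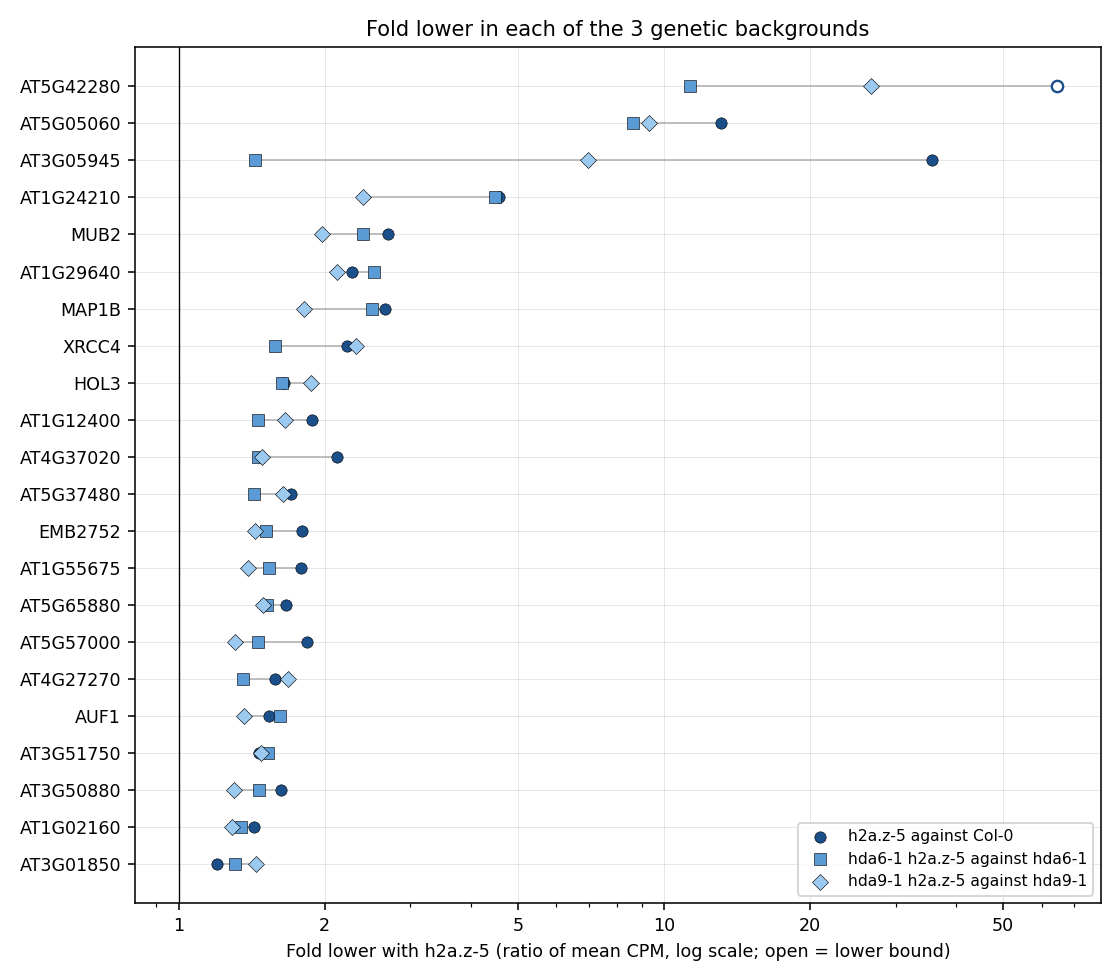
Fold lower with h2a.z-5 (ratio of mean CPM, log axis) for each gene in 3 backgrounds, Col-0, hda6-1 and hda9-1; the open circle of AT5G42280 is a lower bound. AT3G05945 spans 1.44-fold to 35.7-fold, while most other genes stay within a narrow span.

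In the genome the 22 genes were scattered. Chromosomes 1, 3 and 5 held 6 each, chromosome 4 held 3 and chromosome 2 held 1. No gene was next to another, the closest pair being 108 genes apart, and none lay within 20 genes of HTA8, HTA9 or HTA11. The nearest to one of these was AT3G51750, 359 genes from HTA11; NF-YB1, just outside the rule, lay 7 genes from HTA8. The 44 flanking genes had a median ratio of 0.926, and 2 of them, RLP38 and EDF3 beside MAP1B, reached 1.3. Median gene length was 1708 bases, against 2461 bases over all genes of at least 1 CPM.

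The comparison of TSA with Mock is independent of the rule, since none of these 10 libraries was used to choose the genes. It asks which transcripts respond when histone deacetylases are inhibited in plants with intact H2A.Z genes. Of the 22 genes, 9 fell and 1 rose at an adjusted p under 0.05 by edgeR's quasi-likelihood test; 16.7% of the 20201 genes tested fell and 18.5% rose. The share of the 22 that fell was 40.9%, and all 22 were among the genes tested. The genes tested, here and below, are those that passed the count filter. No share was taken over genes of at least 1 CPM alone, the level that the rule asks of the 22. The median log2 fold change was -0.55 over the 22 genes and -0.07 over all genes tested, and 18 of the 22 were negative. In CPM by column totals, the 5 TSA libraries lay wholly below the 5 Mock libraries for 9 genes, against 13.6% of all genes tested, and wholly above for 1, against 9.28%. Mock and TSA levels and overlaps are given on that scale here and below, while the log2 fold changes use TMM scaling. The 2 scales differ: mean CPM was lower in TSA for 20 of the 22, against the 18 with a negative log2 fold change. The overlaps were not taken again with TMM scaling. Of the 7 genes with a ratio of at least 2, 5 fell in TSA, and of the 15 others 4 fell and 1 rose. The genes were listed with earlier results of these data known, so these counts describe the 22 and carry no test of the list.

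AT3G05945 fell furthest. It stood at 51.3, 22.2, 30.4, 51.3 and 27.5 CPM in Mock and at 2.90, 3.85, 3.47, 5.66 and 9.10 CPM in TSA. The groups did not overlap, and the log2 fold change was -2.63 ± 0.34 (SE; edgeR adjusted p = 0.000319). AT5G42280 stood at 2.97, 3.87, 4.71, 2.78 and 5.96 CPM in Mock and at 0.692, 0.641, 1.19, 0.876 and 1.65 CPM in TSA, which is -1.74 ± 0.30 as a log2 fold change (edgeR adjusted p = 0.00137). Every TSA library was below every Mock library.

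AT5G05060 stood at 65.9, 36.3, 46.0, 68.9 and 46.3 CPM in Mock and at 24.6, 24.1, 28.1, 22.9 and 32.8 CPM in TSA. The groups did not overlap, but the fall was smaller than that of AT3G05945, at -0.72 ± 0.20 on the log2 scale (edgeR adjusted p = 0.0177). The 3 genes with the largest drop in the h2a.z-5 libraries all fell in TSA. The next by ratio, AT1G24210, was not called (-0.86 ± 0.46, edgeR adjusted p = 0.164). Nor was AT1G29640, which had a ratio of at least 2 and a positive value (0.42 ± 0.41, edgeR adjusted p = 0.441). A link between the size of the drop and the response to TSA was not tested.

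The other falls were smaller or at lower levels. AT3G51750 changed by -2.17 ± 0.52 on the log2 scale (edgeR adjusted p = 0.00835), from 0.486 to 2.25 CPM in Mock to 0.0532 to 0.470 CPM in TSA. AT4G37020, the eIF4A-like gene, stood at 10.2 to 14.2 CPM in Mock and at 2.42 to 7.84 CPM in TSA (log2 fold change -1.17 ± 0.23, edgeR adjusted p = 0.00288). MUB2 stood at 6.62 to 11.1 CPM in Mock and at 2.45 to 4.80 CPM in TSA (-0.92 ± 0.21, 0.00668). These 3 calls held whichever library was left out.

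The calls of AT1G12400, AT5G37480 and MAP1B did not hold throughout. AT1G12400 changed by -1.01 ± 0.29 on the log2 scale (edgeR adjusted p = 0.0196), and the call was lost without Mock replicate 1 (0.0501). AT5G37480 changed by -1.09 ± 0.35 (edgeR adjusted p = 0.0317), and its call was lost without any of 4 libraries (Mock replicate 4 and TSA replicates 1, 3 and 4; edgeR adjusted p of up to 0.0718). MAP1B changed by -0.54 ± 0.18 (edgeR adjusted p = 0.0362), and its call was lost without 7 of the 10 libraries (all but Mock replicates 3 and 5 and TSA replicate 2; up to 0.0832) and with no filter on low counts (0.0590). EMB2752 missed the threshold with all libraries (edgeR adjusted p = 0.0821), and was called when replicate number was a block (0.0477) or when Mock replicate 2 was left out (0.0472). With the block 10 of the 22 fell and 1 rose, where 22.1% of genes tested fell and 22.7% rose.

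AT4G27270, the quinone reductase gene, went the other way. It stood at 4.83, 3.02, 3.61, 3.94 and 3.71 CPM in Mock and at 10.002, 9.22, 7.70, 9.29 and 8.59 CPM in TSA. Every TSA library was above every Mock library, and the difference was 1.54 ± 0.22 on the log2 scale (edgeR adjusted p = 0.000502). Of the 22 it alone was called higher in TSA with all 10 libraries. Without replicate 5 of both groups AT1G29640 was called higher too (log2 fold change 0.89, edgeR adjusted p = 0.00636). In that fit 10 of the 22 fell and 2 rose, where 5478 of the 20130 genes tested fell and 5481 rose.

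**Figure D3:**
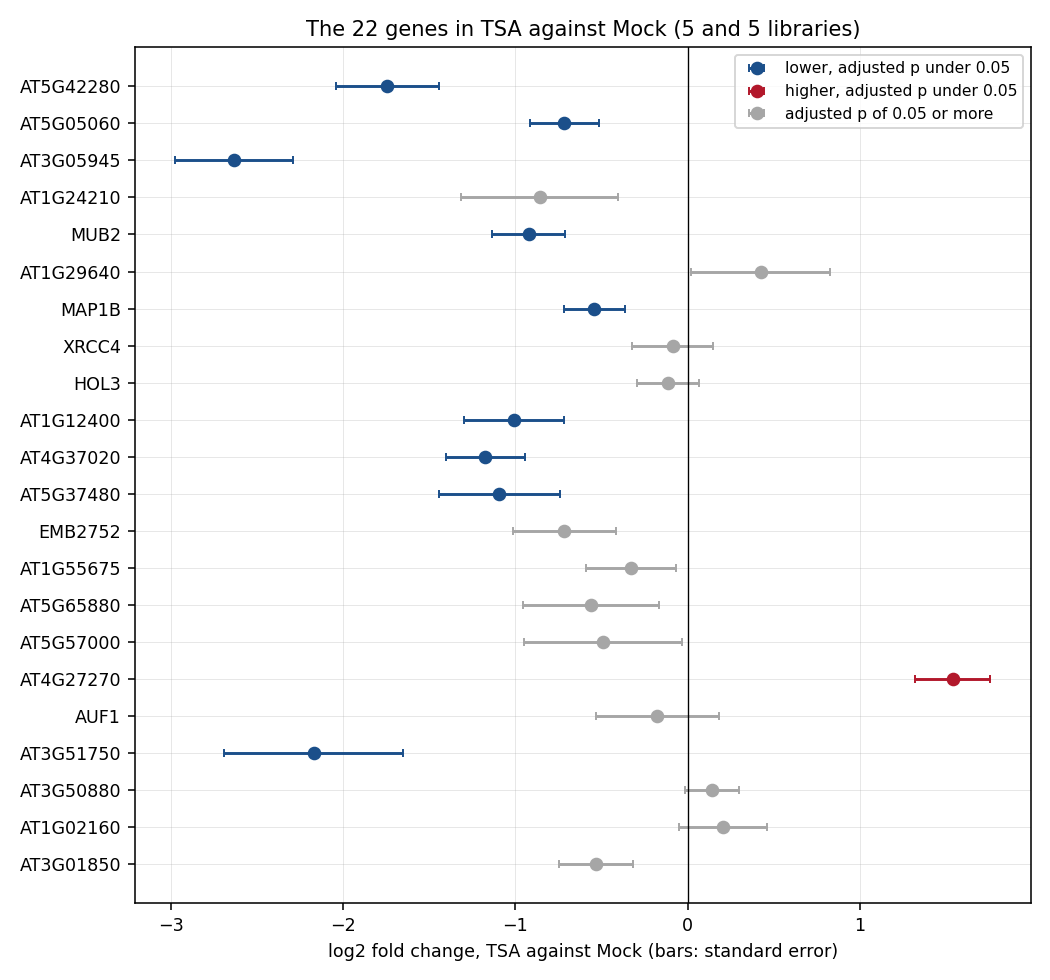
log2 fold change of TSA against Mock for the 22 genes (edgeR; bars are standard errors), ordered by their ratio in the genotype libraries. The 9 genes that fell are blue, AT4G27270, which rose, is red, and the 12 that did not pass are grey.

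The remaining 12 genes did not pass in TSA, among them AUF1 (-0.18 ± 0.36, edgeR adjusted p = 0.726), XRCC4 (-0.09 ± 0.23, 0.800) and HOL3 (-0.12 ± 0.18, 0.641). AT3G01850 had no overlap between TSA and Mock in CPM by column totals, but its log2 fold change of -0.53 ± 0.22 missed the threshold (edgeR adjusted p = 0.0764). It was called lower without Mock replicate 5 (0.0447) and without replicate 5 of both groups (0.0253). The summed level of 11 seed markers moved with TSA, at 1.02 to 26.2 CPM in Mock and 15.3 to 491 CPM in TSA; its part in these results was not tested. Of the H2A.Z genes, HTA8 rose in TSA from 3.81 to 6.44 CPM in Mock to 13.8 to 22.5 CPM (log2 fold change 2.05 ± 0.25, edgeR adjusted p = 0.000256), while HTA9 and HTA11 did not pass (edgeR adjusted p = 0.852 and 0.830). The H2A.Z gene HTA4 fell in TSA by 3.36 on the log2 scale (SE 0.35, edgeR adjusted p = 0.000122).

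The contrasts among genotypes that share the same H2A.Z genes ask how the deacetylase mutants alone bear on the genes. The rule holds the 22 genes to one side of a line in these libraries, so it limits how far they could differ here, and counts are read with that limit. In hda9-1 against Col-0, 0 of the 22 rose and 2 fell, where 0.790% of the 20771 genes tested rose and 0.958% fell. AT5G42280 fell by 1.87 on the log2 scale (SE 0.37, edgeR adjusted p = 0.0221), and AT5G57000 by 0.62 (SE 0.15, edgeR adjusted p = 0.0442). At an unadjusted p under 0.05 the edgeR counts were 0 and 3. No share over all genes was taken at an unadjusted p, here or below. DESeq2 called 0 and 2 after adjustment, and 622 higher and 555 lower over all 20771 genes tested. AT5G57000 stood at 8.73, 8.17 and 9.26 CPM in Col-0 and at 5.24, 5.53 and 6.10 CPM in hda9-1, without overlap. Its call was lost whichever of the 6 libraries was left out (edgeR adjusted p of up to 0.118) and with no filter on low counts (0.0787), and that of AT5G42280 was lost without 4 of them, Col-0 replicates 1 and 2 and hda9-1 replicates 2 and 3 (up to 0.101). With replicate number as a block AT3G05945 was called lower too (-0.60, edgeR adjusted p = 0.0137, against 0.120 without it). The block called 3 of the 22 lower and 0 higher, but it also called 7.15% of all genes tested lower and 9.18% higher, so the count is read against that larger background.

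In the libraries labelled hda6-1 against Col-0, 1 of the 22 rose and 0 fell, where 2.95% of genes tested rose and 0.101% fell. At an unadjusted p under 0.05 it was 2 and 2. DESeq2 called 1 and 0 after adjustment, and 678 higher and 55 lower over all 20771 genes tested. The 1 gene that rose was AT5G05060, at 44.3, 34.2 and 37.7 CPM against 32.0, 24.9 and 28.6 CPM in Col-0 (log2 fold change 0.53 ± 0.13, edgeR adjusted p = 0.0342). The lowest hda6-1 library was above the highest Col-0 library, but the call was lost with no filter on low counts (0.0529) and without any of 5 of the 6 libraries (all but Col-0 replicate 1; up to 0.175). With the block the counts were again 1 and 0, where 4.12% of genes tested rose and 0.722% fell.

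On the h2a.z-5 side, 3 of the 22 were higher and 0 lower with the hda6-1 label than in h2a.z-5 alone, where 2.01% of genes tested were higher and 0.0144% lower. At an unadjusted p under 0.05 the edgeR counts were 4 and 0. DESeq2 called 3 and 0, and 515 higher and 15 lower over all 20771 genes tested. The 3 called by edgeR were those with the largest ratio. AT3G05945 went from 0.642 ± 0.106 CPM (SD, n = 3) to 11.3 ± 1.80 CPM, a log2 fold change of 4.13 with an SE of 0.23 (edgeR adjusted p = 7.3e-08). AT5G05060 rose from 2.17 ± 0.255 to 4.48 ± 0.918 CPM (1.04 ± 0.14, edgeR adjusted p = 0.000495). AT5G42280, with 0 reads in h2a.z-5 and 22 in hda6-1 h2a.z-5, was at least 7.18-fold higher (edgeR adjusted p = 0.00411). All 3 calls held whichever library was left out, and with the block, where 3.05% of genes tested were higher and 0.183% lower.

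In hda9-1 h2a.z-5 against h2a.z-5, 1 of the 22 rose, where 0.279% of genes tested rose and 0.361% fell. AT3G05945 stood at 1.93 to 2.53 CPM against 0.556 to 0.760 CPM, without overlap (log2 fold change 1.73 ± 0.23, edgeR adjusted p = 0.00181). With replicate number as a block 2 rose, since AT5G05060 then passed (log2 fold change 0.63, edgeR adjusted p = 0.00732, against 0.0662); 4.16% of genes tested rose and 3.40% fell with the block.

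The difference between backgrounds was tested itself for each of the 22 genes. The rule chose the genes by the values of these same libraries. It limits how far the drop could differ, and the p-values are read with that limit. AT3G05945 was the 1 gene that passed after adjustment, against 3 with a positive and 0 with a negative difference at an unadjusted p under 0.05 in each of the 2 tests. Its h2a.z-5 effect was weaker with hda6-1 than without by 4.53 ± 0.29 on the log2 scale (edgeR adjusted p = 3.99e-07) and weaker with hda9-1 by 2.30 ± 0.29 (edgeR adjusted p = 0.00352). These 2 tests share the Col-0 and h2a.z-5 libraries, so they are not independent of each other. Over all genes tested, 0.0289% had a positive difference at this threshold in each of the 2 tests, and 0.0241% and 0.00481% a negative one; with the block these shares were 0.0578% and 0.0481%, and 0.0289% and 0.0193%. The others at the unadjusted threshold were AT5G42280 (edgeR adjusted p = 0.198 with hda6-1 and 1.00 with hda9-1) and AT5G05060 (edgeR adjusted p = 1.00 in both). A missed threshold does not show that their drop was the same in the 3 backgrounds. Both calls of AT3G05945 held under every alternative run. HDA6 itself was at the Col-0 level in the 3 libraries that show the weaker effect.

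**Figure D4:**
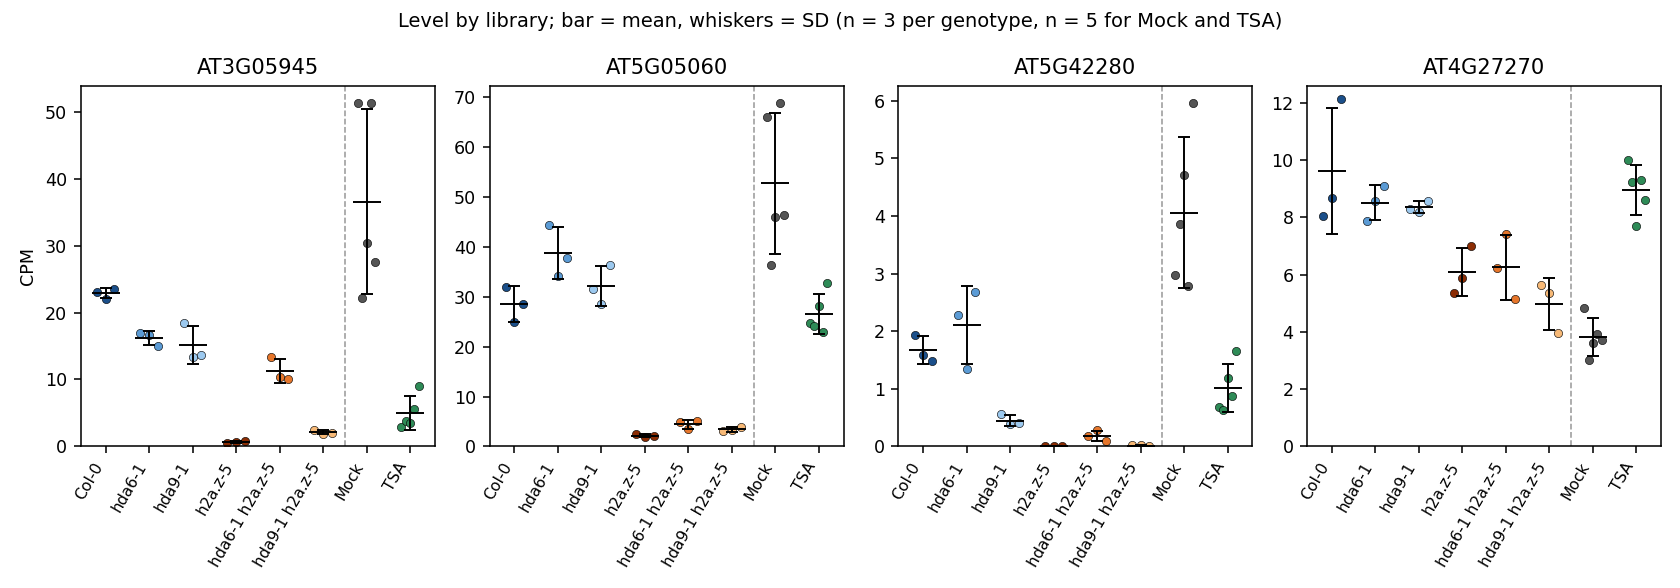
CPM of AT3G05945, AT5G05060, AT5G42280 and AT4G27270 in every library by group (points), with the mean and SD; Mock and TSA, right of the dashed line, come from a separate count table and growth medium. AT3G05945 sits at 11.3 ± 1.80 CPM in hda6-1 h2a.z-5 and under 1 CPM in h2a.z-5, and AT4G27270 is low in Mock and high in TSA.

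The H2A.Z genes, SWR1, INO80 and chaperone genes, and BRM were looked at beside the 22. Of 18 such genes tested, HTA8, HTA9 and HTA11 are those mutated in h2a.z-5. They were lower in the 9 h2a.z-5 libraries, and how the alleles set their level was not tested. Of the other 15, 1 was lower and 0 higher in the 9 h2a.z-5 libraries than in the 9 others, where 3.69% of all genes tested were lower and 4.39% higher; at an unadjusted p under 0.05 the edgeR counts were 1 and 1. The gene was SEF, a subunit of SWR1 (log2 fold change -0.44 ± 0.09, edgeR adjusted p = 0.00785). PIE1, the motor subunit of SWR1, and ARP6, an actin-related subunit, did not pass (0.25 ± 0.18 and -0.08 ± 0.10, edgeR adjusted p = 0.444 and 0.718). With replicate number as a block, RIN1, a RuvB-like ATPase gene, and MBD9, a reader that recruits SWR1, were called higher (edgeR adjusted p = 0.0384 and 0.0397), where 11.2% of all genes tested were lower and 10.2% higher.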

How the data were processed

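The authors deposited whole-number read counts per gene for 18 genotype libraries and 10 Mock and TSA libraries, and per transposable element for the genotypes; the sources used here do not name the RNA aligner, counter or strand setting. The labels' extraction protocol describes chromatin immunoprecipitation, and the submitters' processing notes name the TAIR10 build. Samples follow their labels (h2a.z-5), although the design text has nrp1-1 nrp2-2 in that place. The authors' comparison tables were not used. Replicates are independent biological ones per the series text.

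The genes were found from CPM by column totals, and the members, gene lists and motifs were chosen with earlier results of these data known. Genes were named by size of ratio, level, called change and distance to the rule's limits. Counts were tested with edgeR 4.0.16 (R 4.3.3; quasi-likelihood F test, two-sided, TMM scaling, filterByExpr with a minimum count of 10 and total of 15), with 1 fit for the 18 genotype libraries and another for the 10 Mock and TSA libraries. Adjusted p is Benjamini-Hochberg over all genes tested within a contrast. DESeq2 1.42.0, other scalings, no filter, leaving out libraries and a replicate block were alternatives. Samples of the same replicate number deviated together, with r of 0.161 to 0.800 over 45 genotype pairs. Over 5 Mock and TSA pairs r was 0.145 to 0.557. Between different numbers r was -0.724 to 0.393 over 90 genotype pairs and -0.495 to 0.373 over 20 Mock and TSA pairs. The ranges overlap, but the median genotype r was 0.547 for the same number and -0.329 for different numbers. For Mock and TSA the medians were 0.324 and 0.0609. The main fits leave the pairing out. With the block more genes were called over all genes tested in every contrast, so the shares without it are the smaller ones. The most alike replicates still differed far beyond counting noise, so no library was counted once for 2. Scripts were tested on simulated data. All 36632 identifiers were found in the TAIR10.1 annotation, from which names, coordinates and windows came. Matches elsewhere in the genome were sought with blastn (at least 100 bases at 90% identity).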

Additional observations from a re-analysis of the deposited data

Results flagged for a closer look

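In AT3G05945 the effect of h2a.z-5 differed between backgrounds by a test of the difference itself: 4.53 on the log2 scale between libraries with and without the hda6-1 label and 2.30 between those with and without hda9-1. The gene was chosen by the values of these same libraries, and both differences use the same Col-0 and h2a.z-5 libraries. All 3 libraries of each cross lay above all 3 h2a.z-5 libraries. HDA6 was not lower than in Col-0 in the libraries labelled with hda6-1, and its part in the first value was not tested.

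A single library stood far from the other 4 of its group in 4 of the 44 groups of 5 examined, where chance flags about 1 in 20. All were replicate 5: Mock replicate 5 was high for AT1G24210 (2.86 CPM), XRCC4 (12.3 CPM) and AT5G37480 (30.1 CPM), and TSA replicate 5 was high for AT3G50880 (24.5 CPM). Replicate 5 also stood apart over all genes. Its chi-square per degree of freedom against the other Mock libraries was 538 to 632, against 37.6 to 118 among those. In TSA it was 334 to 402, against 99.8 to 214.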

How the results depend on the processing

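The rule gave 22 genes by column totals, 44 with TMM effective library sizes (18 of the 22 among them) and 48 with DESeq2 size factors (17 of the 22). AT3G05945 was not among the 18. Its TMM factors were 1.09 for hda9-1 replicate 3 (13.6 CPM) and 1.04 for hda6-1 h2a.z-5 replicate 1 (13.3 CPM). Dividing by these factors put the hda9-1 library below the other. The median log2 ratio of the 9 others to the 9 h2a.z-5 libraries, over all genes of at least 1 CPM, was -0.08 by column totals. It was -0.00 by TMM. A ratio of at least 2 left 7 genes, and leaving out 1 library gave 22 to 37 genes, the highest without hda6-1 h2a.z-5 replicate 2. Called genes of the 22 in TSA against Mock numbered 10, and 8 to 11 with 1 library left out. In hda6-1 against Col-0 the count of 1 became 0 with no filter and 0 to 1 with 1 library left out; in hda9-1 against Col-0 the count of 2 became 1 with no filter and 0 to 1 with 1 library left out. In hda9-1 h2a.z-5 against h2a.z-5 the count of 1 became 2 with replicate number as a block and 2 with DESeq2. There DESeq2 called 300 higher and 259 lower over all 20771 genes tested. The count of 3 in hda6-1 h2a.z-5 against h2a.z-5 and that of 1 in each test between backgrounds did not move with 1 library left out. Nor did the count of 4 in the list of H2A.Z, SWR1, INO80 and chaperone genes (with all libraries, the 3 mutated ones and SEF). The replicate block ended no call of the 22 and added those named above. In TSA the sign turned for 3 genes that were not called in any of these fits: with 1 library left out the log2 fold change ran from -0.18 to 0.15 for XRCC4 (0.16 without replicate 5 of both groups), from -0.71 to 0.11 for AT5G57000, both turning without Mock replicate 5, and from -0.40 to 0.00 for AUF1 (turning without Mock replicate 3); the cause was not tested. Depth limits AT5G42280 and AT1G24210, whose h2a.z-5 libraries held few reads.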
